A study of Rattus norvegicus with 19 samples.

Results

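Endothelin and nitric oxide signalling in the heart was described here through the probe sets annotated to 7 gene symbols: Edn1, Ednra, Ednrb, Ece1, Nos3, Gucy1a1 and Gucy1b1. Of these, 5 had a probe set that could be named, 7 probe sets in all out of 20826 that named 1 gene. Ednra and Ednrb, the endothelin receptors, had none and were not analysed here. The 5 genes were taken from 14217 genes measured in heart tissue, the left ventricle, of male rats of the Dahl salt-sensitive strain (Harlan SS/Hsd), in which dietary salt raises blood pressure. Every rat ate 6% NaCl from 6 weeks of age, the control arrays included, so no group on ordinary chow exists here. The baseline group (4 arrays) was taken untreated at 11 weeks of age, after 5 weeks of that diet. The other groups were taken at 15 weeks of age, after 4 further weeks on the diet with treatment. They were vehicle (4 arrays), paricalcitol (4), enalapril with vehicle injections (3, called enalapril below) and enalapril with paricalcitol (4, called the combination below). Paricalcitol activates the vitamin D receptor and was injected at 200 ng, 3 times weekly. Enalapril blocks angiotensin-converting enzyme and came from an implanted pump at 90 ug a day, described by the study as too low to reduce blood pressure significantly.

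Endothelin-1 is a peptide made mainly by vascular endothelium. It is cut from a longer precursor by endothelin-converting enzyme, and its receptors on muscle cells raise intracellular calcium and constrict vessels. Nitric oxide works the other way. Endothelial nitric oxide synthase makes it from arginine, and in neighbouring muscle cells it activates soluble guanylate cyclase, a heterodimer of an alpha and a beta subunit. The cyclic GMP that this enzyme makes relaxes smooth muscle, and both systems are known to act on the loaded heart.

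The sequence upstream of 4 of the genes is shown because endothelial genes of this pathway are known for differently built promoters. The sequences are RefSeq's, on build GRCr8, 5′ to 3′ on the gene's strand, and end where the annotated gene begins. Capitals mark matches, on either strand, to 5 motifs. The letters TATAAA stand for the TATA box, which places the start of transcription in many tightly regulated genes. The motif of the GATA factors, which act in endothelial cells, was searched as AGATAA. An element like that of the AP-1 factors, which answer to many stimuli, was searched as TGACTAA. The GC box, to which Sp1 and its relatives bind, was searched as GGGCGG. The CCAAT box, to which NF-Y binds, was searched by the letters of its name. Matches to different motifs did not overlap in these windows.
Edn1, chr17:22666688-22666937, minus strand: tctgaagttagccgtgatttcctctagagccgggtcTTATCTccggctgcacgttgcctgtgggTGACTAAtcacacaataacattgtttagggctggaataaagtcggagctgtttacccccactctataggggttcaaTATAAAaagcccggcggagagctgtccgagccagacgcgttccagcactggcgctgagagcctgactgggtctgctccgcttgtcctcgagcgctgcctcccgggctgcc
Ece1, chr5:155360781-155361030, plus strand: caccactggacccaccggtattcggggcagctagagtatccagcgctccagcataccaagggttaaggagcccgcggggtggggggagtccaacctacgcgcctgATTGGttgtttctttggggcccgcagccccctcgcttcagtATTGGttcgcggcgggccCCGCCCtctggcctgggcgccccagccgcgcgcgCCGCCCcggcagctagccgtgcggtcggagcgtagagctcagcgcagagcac
Nos3, chr4:11706605-11706831, minus strand: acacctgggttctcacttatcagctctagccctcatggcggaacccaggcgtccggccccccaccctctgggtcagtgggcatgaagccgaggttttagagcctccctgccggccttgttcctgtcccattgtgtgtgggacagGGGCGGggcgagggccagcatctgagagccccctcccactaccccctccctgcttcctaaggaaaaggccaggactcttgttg
Gucy1b1, chr2:169697061-169697237, minus strand: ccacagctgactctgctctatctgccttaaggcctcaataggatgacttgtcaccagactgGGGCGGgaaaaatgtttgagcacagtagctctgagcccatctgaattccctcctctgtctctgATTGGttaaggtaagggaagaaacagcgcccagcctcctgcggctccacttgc

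Upstream of Edn1 the 250 bases held 1 TATA box, 1 GATA motif and 1 AP-1-like motif. These were present in 12.9%, 10.3% and 1.99% of the 33469 windows of that length in the same table. Ece1 had none of those, and held 2 GC boxes and 2 CCAAT boxes (in 30.5% and 34.0% of windows). The 227 bases of Nos3 held 1 GC box, found in 28.1% of windows of that length. The 177 bases of Gucy1b1 held 1 GC box (20.4% of such windows) and 1 CCAAT box (25.5%). A match is a description of letters, not a site shown to be used. RefSeq's windows precede 1 chosen transcript start, and bases within the annotated gene's span were left off; for Gucy1a1, whose span begins further upstream, that left 0 bases and none is shown. The cyclase genes are neighbours on chromosome 2, with 1 annotated gene between them.

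Levels below are log2 of the array intensity plus 16, after the arrays were put on a common distribution, and differences are between such levels, in the order in which the groups are named. A gene passed where limma, a linear model fitted over all genes, gave a Benjamini-Hochberg adjusted p under 0.05. SE is limma's standard error, and intervals are its 95% intervals before adjustment. No member passed in any of the 10 comparisons, nor in limma's F-test of any difference among the 5 groups (adjusted p from 0.489 for Gucy1a1 to 0.822 for Edn1). By that F-test 0.127% of all genes passed, and 10.5% had an unadjusted p under 0.05, which 0 of the 5 members had. All 19 arrays gave a value above 0 for each of the 7 probe sets. The labels do not say that each array is a separate animal, so the p-values measure the spread between these arrays. In whole ventricle, fewer cells of a type and less RNA per cell cannot be told apart.

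**Figure D1:**
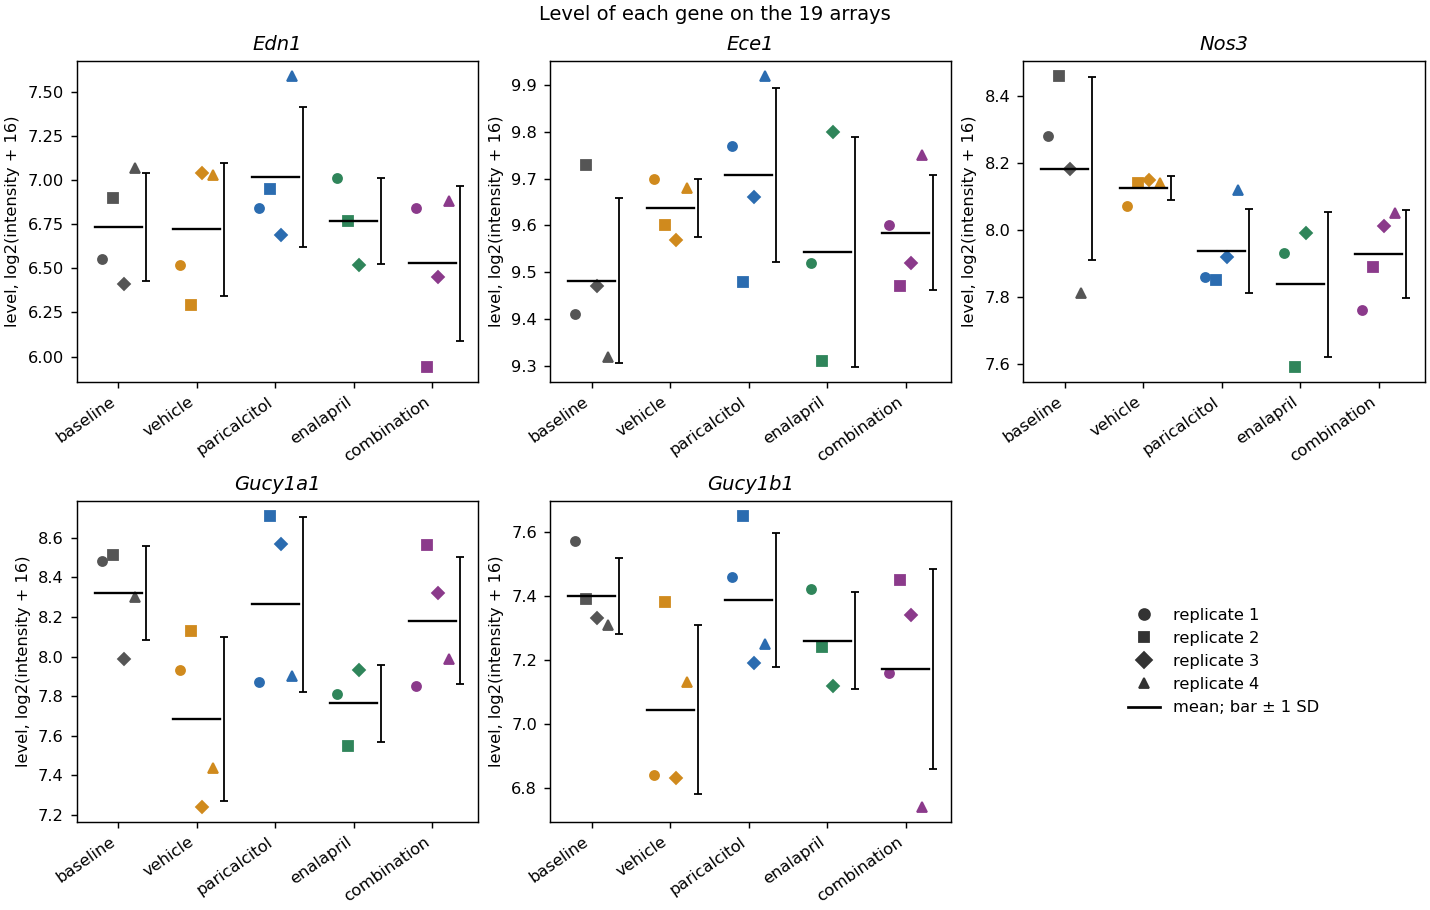
Level of each gene, log2(intensity + 16), on each of the 19 arrays by group, with the marker shape giving the replicate number, a line at the group mean and a bar of 1 SD either side. Gucy1a1 and Gucy1b1 had their lowest group means in vehicle (7.69 and 7.04), and the Nos3 arrays of vehicle lay close together, at 8.07 to 8.15.

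Markers of the labelled tissue were present on all arrays: the ventricular light chain Myl2 did not fall below 13.70. The atrial gene Sln had a deposited intensity at or below 0 on all 19 arrays, and atrial Myl7 lay between 4.11 and 7.28. The third atrial marker, Myl4, was above 0 on every array, at 7.19 to 9.10. Endothelial markers (12 of 13 listed genes measured, none at or below 0 on any array) had a mean score between -0.06 and 0.08 in the 5 groups. A score is the mean, over a marker list, of each gene's level minus its mean over all arrays. Smooth muscle and pericyte markers (11 of 11 measured) had mean scores between -0.13 and 0.16. Fibroblast scores ran from -0.15 in vehicle to 0.25 at baseline and macrophage scores from -0.17 in vehicle to 0.12 in enalapril. Red cell markers (5 of 8 measured) split the arrays within both groups given paricalcitol. Their scores were 0.37, -0.65, -1.09 and 0.55 on paricalcitol replicates 1 to 4, and 0.51, -0.95, -0.84 and 0.55 on combination replicates 1 to 4. Comparisons against vehicle share the vehicle arrays, and those against baseline share the baseline arrays.

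Gucy1a1 encodes the alpha-1 subunit of soluble guanylate cyclase, the receptor of nitric oxide. At baseline its level on the single arrays was 8.48, 8.51, 7.99 and 8.30, and in vehicle 7.93, 8.13, 7.24 and 7.44. With paricalcitol it was 7.87, 8.71, 8.57 and 7.90, in the combination 7.85, 8.56, 8.32 and 7.99, and with enalapril 7.81, 7.55 and 7.93. Enalapril lay below baseline without overlap, and vehicle lay below baseline on 3 of 4 arrays. Each group given paricalcitol split into a higher and a lower pair of arrays. Vehicle did so too, with 7.93 and 8.13 against 7.24 and 7.44. The group means ran in the order baseline (8.32 ± 0.24, SD, n = 4), paricalcitol (8.26 ± 0.44, SD, n = 4), combination (8.18 ± 0.32, SD, n = 4), enalapril (7.77 ± 0.19, SD, n = 3) and vehicle (7.69 ± 0.41, SD, n = 4). Every group overlapped with the next in that order.

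Vehicle minus baseline, which spans 4 more weeks of salt, age and injections, gave the widest gap for Gucy1a1, -0.63 (SE 0.24, interval -1.13 to -0.13), which is 0.646 times the baseline value. It did not pass in limma (adjusted p = 0.399). Each group's descriptions carry their own range of running numbers, without overlap between groups. Whether the groups were studied at different times is not stated, and any such difference cannot be told apart from treatment. Paricalcitol minus vehicle was 0.57 (SE 0.24, interval 0.07 to 1.07; limma adjusted p = 0.432), and combination minus vehicle 0.49 (SE 0.24, interval -0.01 to 0.99; adjusted p = 0.656). Enalapril minus vehicle was 0.08 (SE 0.25, interval -0.46 to 0.62), and enalapril minus baseline -0.55 (SE 0.25; adjusted p = 0.602). Paricalcitol minus baseline was -0.06, with an interval of -0.56 to 0.44. A rise or a fall of up to about that size at 15 weeks with paricalcitol therefore lies within the data.

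In the groups given paricalcitol, the arrays that split Gucy1a1 were the same that split the red cell markers. In vehicle, red cell scores of -0.01, -0.37, 0.48 and -0.16 on replicates 1 to 4 did not separate its higher pair (replicates 1 and 2) from its lower pair. Replicates 2 and 3, with low red cell scores, held the higher Gucy1a1 levels in both groups given paricalcitol, and replicates 1 and 4 the lower ones. This was noticed after the values were seen. Over 19 arrays Gucy1a1 had r = -0.53 and rho = -0.46 with the red cell score (permutation p = 0.0217 and 0.0463, adjusted over the 5 members 0.109 and 0.231). Without paricalcitol replicate 3 and combination replicate 2 it was -0.36 (permutation p = 0.159), so the relation over pooled arrays was weaker without those arrays. They have the most extreme scores, and leaving them out also narrows the range. On deviations from group means r was -0.79 (permutation p = 0.00011, adjusted over the 5 members 0.00055). The same deviations gave -0.53 for Gucy1b1 (adjusted permutation p = 0.0459), 0.50 for Edn1 (0.0522), 0.41 for Ece1 (0.0971) and 0.05 for Nos3 (0.856). Permutations on deviations shuffled the 19 arrays freely and made no allowance for the group means removed, so their p-values are too small. The value for Gucy1b1, close to 0.05, therefore cannot be read as lying under it. Over pooled arrays the other members had r = -0.34 for Gucy1b1, 0.39 for Edn1, 0.19 for Ece1 and 0.19 for Nos3, with adjusted permutation p of 0.249 or more. With the red cell score as a covariate, vehicle minus baseline for Gucy1a1 was -0.80 (SE 0.15, limma adjusted p = 0.0393) and passed. The covariate was the score already seen to go with Gucy1a1 within groups, so this pass is not independent of that observation. In that fit 0.443% of all genes passed. It was the only setting, out of 33 fits, in which any member passed in any comparison. Over the alternatives and the omissions of baseline or vehicle arrays, the limma adjusted p of this difference ran from 0.0393 to 0.701. The dimmer Gucy1a1 probe set taken singly, described below, is not in that range and had 0.885.

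Gucy1b1 encodes the beta-1 subunit, which carries the haem that binds nitric oxide. Its level was 7.57, 7.39, 7.33 and 7.31 at baseline and 6.84, 7.38, 6.83 and 7.13 in vehicle. With paricalcitol it was 7.46, 7.65, 7.19 and 7.25, with enalapril 7.42, 7.24 and 7.12, and in the combination 7.16, 7.45, 7.34 and 6.74. Vehicle lay below the lowest baseline array on 3 of 4 arrays, and the combination reached lower than any other group on replicate 4. The order of means was baseline (7.40 ± 0.12, SD, n = 4), paricalcitol (7.39 ± 0.21, SD, n = 4), enalapril (7.26 ± 0.15, SD, n = 3), combination (7.17 ± 0.31, SD, n = 4) and vehicle (7.04 ± 0.26, SD, n = 4), and each overlapped with the next. Vehicle minus baseline was -0.36 (SE 0.16, interval -0.69 to -0.02; limma adjusted p = 0.519). Paricalcitol minus vehicle was 0.34 (SE 0.16, interval 0.01 to 0.68; adjusted p = 0.506), enalapril minus vehicle 0.22 (SE 0.17) and combination minus vehicle 0.13 (SE 0.16), neither of which passed.

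In their brighter probe sets both subunits thus had their highest mean at baseline and their lowest in vehicle. The dimmer Gucy1b1 probe set, described below, did so too (7.41 and 6.99). The dimmer Gucy1a1 probe set did not, with its highest mean in enalapril (6.16) and its lowest with paricalcitol (5.76). Over the 19 arrays Gucy1a1 and Gucy1b1 had r = 0.58 and rho = 0.51 (permutation p = 0.00889 and 0.0299, adjusted over 5 relations 0.021 and 0.0448). On deviations from group means r was 0.46, and without combination replicate 4 and vehicle replicate 3 it was 0.53. The planned relations set the subunits against the smooth muscle and pericyte score, and their relation to the endothelial score was not computed. Gucy1b1 followed the smooth muscle and pericyte score, with r = 0.66 and rho = 0.70 (permutation p = 0.00204 and 0.00121, adjusted 0.0102 and 0.00605), 0.50 without baseline replicate 1 and paricalcitol replicate 2, and 0.49 on deviations. For Gucy1a1 these were r = 0.49 and rho = 0.49 (permutation p = 0.0354 and 0.0358, adjusted 0.0443 and 0.0448). On deviations r was 0.47 (permutation p = 0.0419, too small for the reason given above, so not read as under 0.05). Without the same arrays r was 0.28 (permutation p = 0.274), so the pooled relation was weaker without them. They have the most extreme scores, and leaving them out also narrows the range.

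Smooth muscle and pericyte markers moved in the direction of both subunits in vehicle minus baseline and in paricalcitol minus vehicle. In vehicle minus baseline 8 of 11 were lower and 3 higher (median -0.20, against 0.00 for all genes), and the summed level of the list, as log2, was 12.53 to 12.62 in vehicle and 12.63 to 12.97 at baseline. In paricalcitol minus vehicle 10 of 11 were higher (median 0.27), with a summed level of 12.62 to 12.97 under paricalcitol. In these comparisons 0 of the 11 passed in limma, and none was at or below 0 on any array. At an unadjusted p under 0.05 were 3 and 4 of them, against 9.2% and 9.64% of all genes. Other lists had the same direction. In vehicle minus baseline 7 of 8 fibroblast markers (median -0.41), 8 of 12 endothelial markers (-0.07), 7 of 8 macrophage markers (-0.25) and 5 of 5 red cell markers (-0.38) were lower. In paricalcitol minus vehicle 10 of 12 endothelial markers (median 0.10), 7 of 8 fibroblast markers (0.17) and 7 of 8 macrophage markers (0.15) were higher, while 5 of 5 red cell markers were lower (-0.14). Of each of these lists 0 passed in limma. At an unadjusted p under 0.05 were 3 fibroblast and 3 endothelial markers in the first comparison and 2 endothelial markers in the other. The shares of all genes are those just given, and with lists this short such counts are few to set against them. In combination minus vehicle 5 muscle and pericyte markers were higher and 6 lower (median -0.04), with Gucy1a1 at 0.49 and Gucy1b1 at 0.13. In combination minus enalapril 9 were lower (-0.12), with 0.41 and -0.09. In enalapril minus vehicle 9 were higher (0.20), with 0.08 and 0.22. In combination minus paricalcitol 9 were lower (-0.38), with -0.08 and -0.22. The part of the listed cell types in the cyclase values was not tested beyond the correlations and, for red cells alone, the covariate given here.

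**Figure D2:**
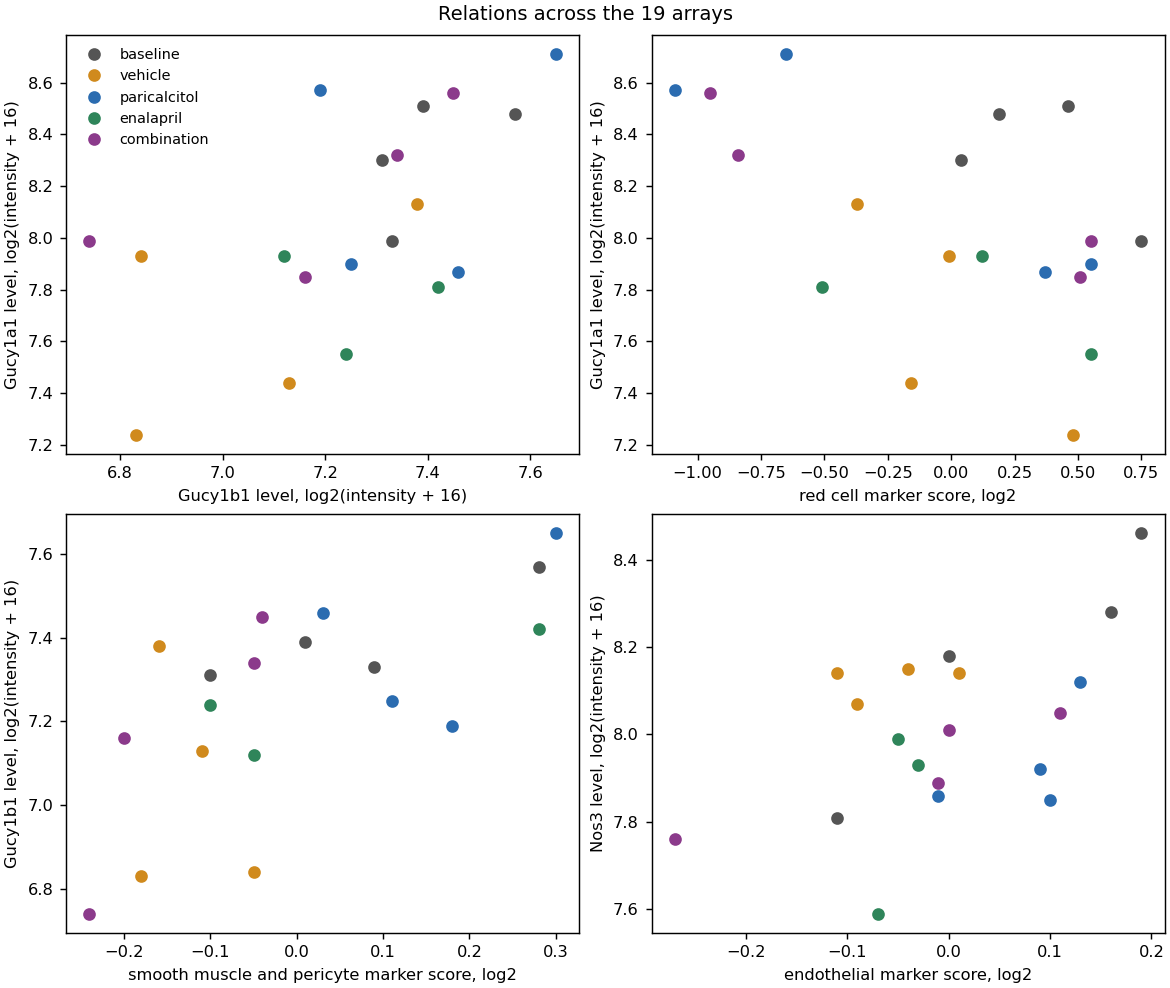
Each point is 1 of the 19 arrays, coloured by group: Gucy1a1 against Gucy1b1 (r = 0.58), Gucy1a1 against the red cell marker score (r = -0.53), Gucy1b1 against the smooth muscle and pericyte score (r = 0.66) and Nos3 against the endothelial score (r = 0.56), with levels as log2(intensity + 16) and scores in log2 units. The 4 arrays with the lowest red cell scores are replicates 2 and 3 of paricalcitol and of the combination, and their Gucy1a1 levels are 8.32 to 8.71.

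Each subunit also had a dimmer probe set, and these differed in how far they followed the brighter ones. The dimmer Gucy1b1 probe set (r = 0.66 with the brighter over 19 arrays) gave 7.30, 7.34, 7.66 and 7.34 at baseline and 6.95, 7.14, 6.74 and 7.14 in vehicle, without overlap. Its difference was -0.42 (SE 0.16) and did not pass (limma adjusted p = 0.457 over single probe sets). For paricalcitol minus vehicle it gave 0.16 (SE 0.16), against 0.34 in the brighter. The dimmer Gucy1a1 probe set (r = 0.37) gave 5.89, 6.83, 5.90 and 6.00 at baseline and 5.81, 6.06, 5.61 and 5.90 in vehicle, which overlapped, a difference of -0.31 (SE 0.33). With paricalcitol it gave 5.16, 6.39, 6.17 and 5.33, again higher on replicates 2 and 3, but in the combination it was highest on replicates 1 and 2 (6.23 and 6.37, against 5.50 and 5.04). Its paricalcitol minus vehicle difference was -0.08 (SE 0.33), of opposite sign to the 0.57 of the brighter one. Enalapril minus baseline was 0.00 (SE 0.35) in the dimmer probe set and -0.55 in the brighter, so the lack of overlap with baseline held in the brighter alone. Combination minus vehicle was -0.06 (SE 0.33) in the dimmer Gucy1a1 probe set and 0.49 in the brighter. Combination minus enalapril was -0.37 (SE 0.35) in the dimmer and 0.41 in the brighter. So the vehicle mean lay below the baseline mean in all 4 cyclase probe sets, while paricalcitol had a higher mean than vehicle in 3 of the 4.

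**Figure D3:**
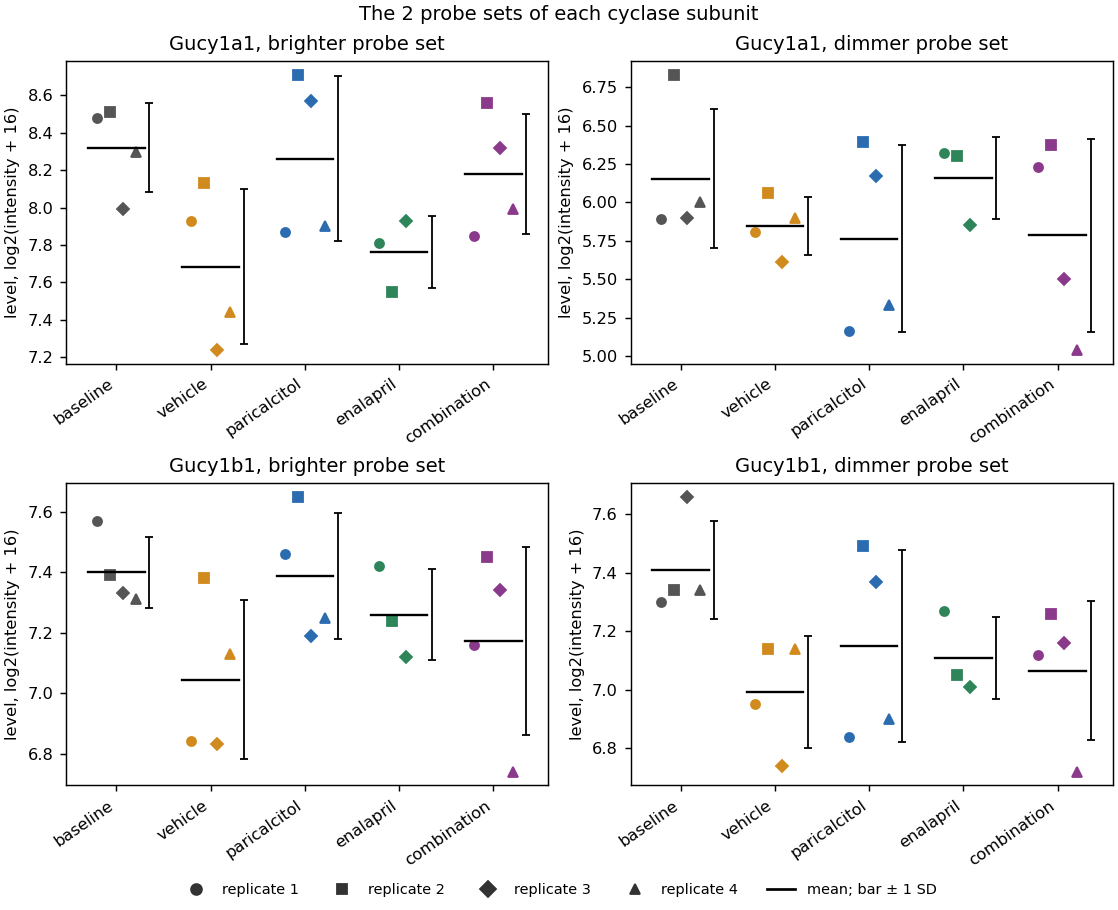
Levels, log2(intensity + 16), from the brighter (left) and dimmer (right) probe set of Gucy1a1 (top) and Gucy1b1 (bottom) on each array, with the group mean and 1 SD. Vehicle and baseline do not overlap in the dimmer Gucy1b1 probe set, and the dimmer Gucy1a1 probe set has a paricalcitol mean of 5.76, below vehicle at 5.84.

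Nos3 encodes endothelial nitric oxide synthase, the enzyme that makes nitric oxide in the vessel lining. In vehicle its level was 8.07, 8.14, 8.15 and 8.14, the tightest of any group, and at baseline 8.28, 8.46, 8.18 and 7.81. With paricalcitol it was 7.86, 7.85, 7.92 and 8.12, with enalapril 7.93, 7.59 and 7.99, and in the combination 7.76, 7.89, 8.01 and 8.05. All 3 enalapril and all 4 combination arrays lay below the lowest vehicle array, and 3 of the 4 paricalcitol arrays did. Baseline, which spread widely, overlapped with every treated group. The means were ordered baseline (8.18 ± 0.27, SD, n = 4), vehicle (8.12 ± 0.04, SD, n = 4), paricalcitol (7.94 ± 0.12, SD, n = 4), combination (7.93 ± 0.13, SD, n = 4) and enalapril (7.84 ± 0.21, SD, n = 3), each overlapping with the next.

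Enalapril minus vehicle for Nos3 was -0.29 (SE 0.13, interval -0.56 to -0.01), or 0.818 times vehicle. It did not pass in limma (adjusted p = 0.870), and the exact 2-sided permutation p was 0.0571, the smallest that 3 against 4 arrays can give here. Combination minus vehicle was -0.20 (SE 0.12, interval -0.45 to 0.06; adjusted p = 0.762; exact permutation p = 0.0286, the smallest possible for 4 against 4). Paricalcitol minus vehicle was -0.19 (SE 0.12, interval -0.44 to 0.07; adjusted p = 0.657). Against baseline, Nos3 was lower by -0.35 (SE 0.13) in enalapril, -0.25 (SE 0.12) in the combination and -0.24 (SE 0.12) with paricalcitol, none of which passed (adjusted p = 0.505, 0.483 and 0.667). In the deposited intensities without equalisation between arrays, neither enalapril nor the combination was free of overlap with vehicle, and with each array centred on its median enalapril overlapped too.

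Endothelial markers did not show the same order as Nos3. In enalapril minus vehicle 7 of 12 were higher and 5 lower (median 0.02), and in combination minus vehicle 5 were higher and 7 lower (median -0.03). Their summed level, as log2, was 13.16 to 13.22 in vehicle, 13.17 to 13.23 in enalapril, 13.21 to 13.42 with paricalcitol and 12.97 to 13.35 in the combination. Over all arrays Nos3 had r = 0.56 and rho = 0.49 with the endothelial score (permutation p = 0.0126 and 0.0349, adjusted over 5 relations 0.021 and 0.0448), and 0.75 on deviations from group means. Without baseline replicate 2 and combination replicate 1 it was 0.33 (permutation p = 0.203), so the pooled relation was weaker without those arrays. They have the most extreme scores, and leaving them out also narrows the range.

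Edn1 encodes the precursor of endothelin-1, the constrictor peptide. Its level was 6.55, 6.90, 6.41 and 7.07 at baseline, 6.52, 6.29, 7.04 and 7.03 in vehicle, and 7.01, 6.77 and 6.52 with enalapril. With paricalcitol it was 6.84, 6.95, 6.69 and 7.59, and in the combination 6.84, 5.94, 6.45 and 6.88. All groups overlapped, and the highest array (paricalcitol replicate 4) and the lowest (combination replicate 2) came from the groups given paricalcitol. The means were ordered paricalcitol (7.02 ± 0.40, SD, n = 4), enalapril (6.77 ± 0.25, SD, n = 3), baseline (6.73 ± 0.30, SD, n = 4), vehicle (6.72 ± 0.38, SD, n = 4) and combination (6.53 ± 0.44, SD, n = 4).

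Vehicle minus baseline for Edn1 was -0.01 with an interval of -0.55 to 0.53, so a change of up to about that size in either direction lies within the interval. The widest gap was between the groups that received paricalcitol. Combination minus paricalcitol, which asks what enalapril added, was -0.49 (SE 0.25, interval -1.03 to 0.05; limma adjusted p = 0.606). Paricalcitol minus vehicle was 0.30 (SE 0.25; adjusted p = 0.760), and 0.11 without paricalcitol replicate 4. That array had a red cell score of 0.55, and combination replicate 2 one of -0.95. Edn1 had r = 0.39 and rho = 0.25 with the red cell score (permutation p = 0.0996 and 0.293, adjusted over the 5 members 0.249 for r), and with that score as a covariate combination minus paricalcitol was -0.50 (SE 0.23; limma adjusted p = 0.441). Edn1 showed no relation to the endothelial score (r = 0.07 and rho = -0.07, permutation p = 0.771 and 0.776, adjusted 0.771 and 0.776; 0.10 without baseline replicate 2 and combination replicate 1, and -0.12 on deviations), and r = 0.59 in the deposited intensities, which carry the arrays' common offsets.

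Ece1 encodes endothelin-converting enzyme 1, which cuts the precursor to the active peptide. It spanned the narrowest range of the 5 genes over all arrays, 9.31 to 9.92. Its level was 9.41, 9.73, 9.47 and 9.32 at baseline, 9.70, 9.60, 9.57 and 9.68 in vehicle, and 9.52, 9.31 and 9.80 with enalapril. With paricalcitol it was 9.77, 9.48, 9.66 and 9.92, and in the combination 9.60, 9.47, 9.52 and 9.75. All groups overlapped, and the means ran from 9.71 ± 0.18 (SD, n = 4) with paricalcitol through vehicle (9.64), combination (9.59) and enalapril (9.54) to 9.48 ± 0.18 (SD, n = 4) at baseline. The widest difference was paricalcitol minus baseline, 0.22 (SE 0.11, interval -0.02 to 0.47; limma adjusted p = 0.677), and in the deposited intensities it was -0.01. Against vehicle, the intervals were -0.17 to 0.31 for paricalcitol, -0.36 to 0.16 for enalapril and -0.29 to 0.19 for the combination.

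**Figure D4:**
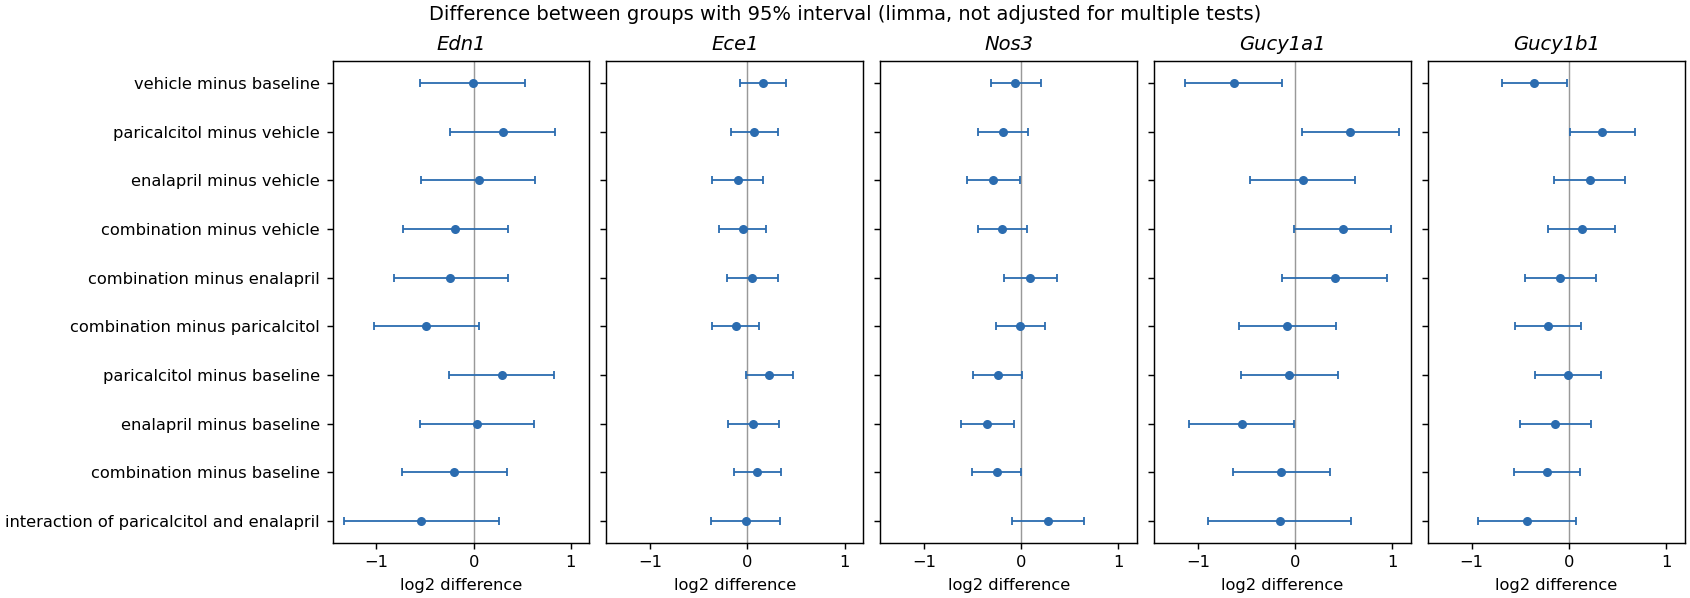
Difference in log2 level for each of the 5 genes in the 10 comparisons, drawn with the 95% interval from limma before any adjustment for multiple tests. Of the 50 intervals, those of Gucy1a1 and Gucy1b1 in vehicle minus baseline and paricalcitol minus vehicle, of Gucy1a1 and Nos3 in enalapril minus baseline, and of Nos3 in enalapril minus vehicle and combination minus baseline leave out 0; none of these passed after adjustment.

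The counts of members are given beside the same shares over all genes, comparison by comparison. In vehicle minus baseline 0 of 5 passed in limma, where 0.0844% of all genes did, and 2 of 5 had an unadjusted p under 0.05, where 9.2% did. Of the 5, 0 were free of overlap (7.77% of all genes), 1 was higher and 4 were lower (median -0.06). In paricalcitol minus vehicle 0 passed (0.0141% of all genes), 2 had an unadjusted p under 0.05 (9.64%), 0 were free of overlap (5.04%), and 4 were higher (median 0.30, against 0.00 for all genes). In enalapril minus vehicle 0 passed (0% of all genes), 1, Nos3, had an unadjusted p under 0.05 (5.64%) and was free of overlap (8.53%). In combination minus vehicle 0 passed (0.00703%), 0 had an unadjusted p under 0.05 (7.68%) and 1, again Nos3, was free of overlap (4.23%).

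Among the comparisons of the drugs with each other, combination minus enalapril asked what paricalcitol added: 0 members passed (0% of all genes), 0 had an unadjusted p under 0.05 (5.3%) and 0 were free of overlap (4.94%). In combination minus paricalcitol all 5 members were lower (median -0.12), but 0 passed (0%), 0 had an unadjusted p under 0.05 (9.05%) and 0 were free of overlap (3.43%). The interaction, which asks whether paricalcitol acted differently with enalapril present, passed for 0 members (0%), and 0 had an unadjusted p under 0.05 (6.94%). Its lowest adjusted p was that of Gucy1b1, at -0.43 (SE 0.23, interval -0.93 to 0.07; limma adjusted p = 0.760), and Edn1 had -0.54 (SE 0.37; adjusted p = 0.820).

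Against baseline, paricalcitol had 0 members that passed (0.0281% of all genes), 0 with an unadjusted p under 0.05 (7.76%) and 0 free of overlap (3.71%). Enalapril had 0 that passed (0.0141%), 2 with an unadjusted p under 0.05, Nos3 and Gucy1a1 (8.06%), and 1 free of overlap, Gucy1a1 (8.89%). The combination had 0 that passed (0.162%), 1 with an unadjusted p under 0.05, Nos3 (10.3%), and 0 free of overlap (5.58%). With 5 members, 1 or 2 such genes are few to set against these shares.

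Other genes of the pathway were read from 3 lists. Of 23 listed genes for endothelin metabolism and receptor signalling, 21 were measured and 0 passed in any comparison or in the F-test. In the F-test 2 had an unadjusted p under 0.05, against 10.5% of all genes. Nfatc4, a calcineurin-dependent transcription factor of hypertrophy, had the lowest p of the list (adjusted p = 0.382). Its means were 8.73 ± 0.07 (SD, n = 4) with paricalcitol, 8.49 ± 0.18 (SD, n = 4) in vehicle, 8.43 ± 0.08 (SD, n = 4) at baseline, 8.43 ± 0.06 (SD, n = 3) in enalapril and 8.51 ± 0.17 (SD, n = 4) in the combination. Paricalcitol minus vehicle was 0.24 (SE 0.09; limma adjusted p = 0.360). Mme, neprilysin, which degrades endothelin-1 among other peptides, lay near the lowest value the scale allows, 4, in every group (means of 4.15 to 4.62), with the highest mean under paricalcitol (F-test adjusted p = 0.455). The list's median difference lay between -0.01 and 0.03 in the 10 comparisons.

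For nitric oxide synthesis and its control, 23 of 29 listed genes were measured and 0 passed; 1 had an unadjusted p under 0.05 in the F-test. That gene was Cav1, caveolin-1, the membrane protein that binds and holds back endothelial nitric oxide synthase (adjusted p = 0.347). Its means were 11.86 ± 0.22 (SD, n = 4) at baseline, 11.51 ± 0.08 (SD, n = 4) in vehicle, 11.84 ± 0.17 (SD, n = 4) with paricalcitol, 11.47 ± 0.09 (SD, n = 3) in enalapril and 11.67 ± 0.22 (SD, n = 4) in the combination. Vehicle minus baseline was -0.35 (SE 0.12; limma adjusted p = 0.344) and paricalcitol minus vehicle 0.33 (SE 0.12; adjusted p = 0.360). Nostrin, an adaptor that draws the synthase off the membrane, had its lowest mean in the combination, 6.51 ± 0.14 (SD, n = 4), against 6.84 ± 0.20 (SD, n = 4) in vehicle, a difference of -0.34 (SE 0.14; adjusted p = 0.608). The list's median difference ran from -0.10 to -0.02.

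Of 20 listed makers, effectors and phosphodiesterases of cyclic GMP, 19 were measured and 0 passed, with 0 at an unadjusted p under 0.05 in the F-test. The lowest F-test p values were those of Npr2, the receptor cyclase for C-type natriuretic peptide (adjusted p = 0.572), and Cyb5r3, a reductase that keeps the haem of the soluble cyclase in its active state (adjusted p = 0.634). Npr2 had means of 7.64 ± 0.35 (SD, n = 4) at baseline and 8.04 ± 0.18 (SD, n = 4) in the combination, a difference of 0.40 (SE 0.16; limma adjusted p = 0.375). Cyb5r3 had 10.90 ± 0.04 (SD, n = 4) in vehicle and 10.61 ± 0.14 (SD, n = 3) in enalapril, a difference of -0.28 (SE 0.13; adjusted p = 0.874). The list's median was between -0.06 and 0.02 in the 9 comparisons of a pair of groups, and -0.16 in the interaction.

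The genes most like each member over the 19 arrays were sought among the 7108 genes of above-median mean level, by Pearson's r, as a description with no test. For Gucy1a1 they were Clta, a clathrin light chain (0.87), and the endothelial receptor kinases Tie1 (0.86) and Tek (0.83), the last pair also in the endothelial marker list. For Gucy1b1 they were Sf3b2, a splicing factor subunit (0.82), Mmrn2, an endothelial matrix protein (0.81), and Taf15 (0.80). For Nos3 they were Ccdc71 (0.79), Septin8 (0.78) and Tp53i11 (0.77), and for Edn1 Crebbp, a histone acetyltransferase (0.84), Hgs (0.80) and Aebp2 (0.80). For Ece1 they were Vwf, von Willebrand factor of endothelial cells (0.73), Grina (0.72) and Usp5 (0.69). On deviations from group means these 15 values lay between 0.65 and 0.84. All arrays share their processing, and the best of 7108 genes is high by selection.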

How the data were processed

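Total RNA of the left ventricle, with an integrity number above 9, was labelled for Affymetrix arrays, per the labels' protocols. For every probe set the authors deposited 1 linear intensity from each array; their software is not given in the sources used here. Array medians ran from 43.6 to 72.6 and between 16% and 18.2% of values per array lay under 0; the step that gave such values is not given in the sources used here. Arrays were quantile normalized together, values below 0 set to 0 and log2(value + 16) taken. For each of 14217 genes the brightest probe set on average was kept, named through GEO's platform annotation; probe sets that named several genes (436), none (9780), or controls (57) were left out. Group means were modelled with limma 3.58.1 (R 4.3.3; empirical Bayes with a trend) on the 19 arrays together, and the code was tested on simulated data. Overlap was counted per pair of groups, and relations across arrays were tested with 100000 permutations, 2-sided. The plan held 7 relations, of which 5 could be computed; those with the red cell score were added after the data were seen. Named genes were the members, the listed pathway genes that passed or otherwise the 2 with the lowest F-test p, and the 3 most alike. The members and lists were chosen with earlier results of these data known. Alternatives were other normalizations, pseudocounts of 4 and 64, brighter genes only, array weights, no trend, fits of just the groups compared, averaged or single probe sets, the replicate number as a block, a red cell covariate and each array left out. The number of arrays limits the precision.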

Additional observations from a re-analysis of the deposited data

How the results depend on the processing

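Over 33 fits, the number of members that passed stayed at 0 in every comparison and in the F-test, where that could be run, except 1 (Gucy1a1) in vehicle minus baseline with the red cell covariate. The F-test was not run with only the groups compared, and Edn1 is not among the brighter genes. Of the 50 member differences, 30 kept their sign under every alternative and each omission of an array of the groups compared. Those of Gucy1a1 and Gucy1b1 in vehicle minus baseline ran from -0.88 to -0.47 and from -0.62 to -0.27. The dimmer probe sets taken singly were not counted in this. The dimmer Gucy1a1 probe set gave -0.31 in vehicle minus baseline. Its sign was opposite to the brighter one's in paricalcitol minus vehicle (-0.08), combination minus vehicle (-0.06) and combination minus enalapril (-0.37). Counts free of overlap changed in the deposited intensities, to 1 in vehicle minus baseline and to 0 in enalapril minus vehicle, combination minus vehicle and enalapril minus baseline. After median centring both enalapril counts were 0, and with probe sets averaged vehicle minus baseline was 1 and enalapril minus baseline 0. With single arrays left out these counts ran from 0 to 2 in vehicle minus baseline, from 1 to 2 in enalapril minus vehicle and enalapril minus baseline, and from 0 to 1 in paricalcitol minus vehicle, combination minus enalapril, paricalcitol minus baseline and combination minus baseline. The cause was not tested. In the deposited intensities the median of all genes in vehicle minus baseline was -0.20. Reruns of the relations were read by permutation p before adjustment, against 0.05. By that reading Nos3 (0.33) and Gucy1a1 with the muscle score (0.28) changed sides without the farthest arrays. Edn1 did so in the deposited intensities (0.59), while on deviations it had -0.12. Without the farthest arrays Gucy1a1 with Gucy1b1 had a permutation p of 0.0276 and Gucy1b1 with the muscle score 0.0401. These reruns were not adjusted over the 5 relations. Permutation p-values on deviations made no allowance for the group means removed and are too small. Over all genes, the 12 that passed in vehicle minus baseline became 3 in the deposited intensities and 160 with array weights, and the 2 in paricalcitol minus vehicle became 1 in the deposited intensities and 71 after median centring.

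The labels give replicate numbers 1 to 4 in every group (1 to 3 in enalapril) without saying that they pair animals. Of 10 pairs of groups, 1 had every same-number correlation above 0.1: the combination with paricalcitol (0.315 to 0.555). With the replicate block 0 members passed in every comparison; vehicle minus baseline for Gucy1a1 was -0.63 (limma adjusted p = 0.350), and all genes that passed there numbered 19 in place of 12.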
